A study of Drosophila melanogaster with 16 samples.

Results

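The proteasome is the main protease of the cytoplasm and nucleus, and its subunits are encoded in Drosophila by genes that FlyBase names Prosalpha, Prosbeta, Rpt and Rpn. All genes whose symbol starts with one of these names were taken, which gave 48 genes of the 14228 with a transcript in the tables. Of the 48 genes, 32 are the subunits of the standard particle (7 alpha ring, 7 beta ring, 6 Rpt and 12 Rpn genes) and are called core subunits below. The other 16 carry an R or T suffix (5 alpha ring, 6 beta ring, 3 Rpt and 2 Rpn genes) and are called copies. All 48 are annotated as protein coding, with 8 on chromosome arm 2L, 13 on 2R, 7 on 3L, 14 on 3R and 6 on X.

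In this particle, stacked rings of alpha and beta subunits form a barrel. The alpha ring holds the gate, and some of the beta subunits carry the cutting sites. A cap binds to the barrel: a ring of Rpt ATPases unfolds the substrate, and the Rpn subunits form the scaffold, hold the receptors for ubiquitin and remove the ubiquitin chain. The subunits are needed in fixed proportion, and their mRNAs are found in nearly every cell. In flies, several copies with an R or T suffix are known from the testis.

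RNA of the larval brain (L3 larvae) was labelled in chosen cells by EC-tagging. A fusion of cytosine deaminase and uracil phosphoribosyltransferase (CD:UPRT) converts fed 5-ethynylcytosine into a base that enters new RNA, and the tagged RNA is then purified. CD:UPRT was driven by insc-Gal4 in neuroblasts and other neural progenitors (insc_CD:UPRT, called neuroblasts here) or by nSyb-Gal4 in neurons (nsyb_CD:UPRT). Both genotypes were fed for 12 h (pulse, 0 h of chase) and then moved to uridine for 3, 6 or 12 h (chase), with 2 libraries for each cell type and time point and 16 libraries in all. The central nervous system was crudely dissected, so RNA from attached tissue may be present, and the methods describe independent feedings in triplicate as well as duplicate RNA samples taken for biotinylation. Neither they nor the labels say which of these the 2 libraries of a time point are, so the p-values measure the spread between libraries, which may be technical.

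The libraries differed in kind before any subunit was considered. Neuroblast libraries held 11053940 to 31713720 estimated counts, and neuron libraries held 44317916 to 211109573. Genes of the mitochondrial genome took 9.66 to 12.8% of the counts in neuroblasts. In neurons they took 86.3 to 92.1% in the 4 libraries numbered 1 but 2.75 to 11.9% in those numbered 2. At least 10 counts were found for 13.1 to 72.4% of all genes in neuroblasts and for 6.45 to 66.1% in 7 neuron libraries. In the remaining neuron library, 12 h of chase replicate 2, 13917 genes (97.8%) had at least 10 counts. The markers did not separate the cell types. All 6 neuron markers listed (elav, nSyb, brp, Syt1, fne and para) had at least 10 counts in 7 of the 8 neuroblast libraries, whereas 0 to 6 of the 6 neuroblast markers (ase, dpn, wor, mira, insc and grh) did, and dpn, a defining gene of neuroblasts, did so in 1 neuroblast library. In the fit of level between cell types described further on, 5 of the 6 neuroblast markers and 6 of the 6 neuron markers were lower in the neuroblast libraries. None of these 12 passed the threshold by edgeR, and 1 had an unadjusted p under 0.05. DESeq2 called 1 neuroblast and 4 neuron markers, beside 2808 of 12694 genes.

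In neuroblasts the core subunits were present in nearly every library. At least 10 counts were found for 30 and 31 of the 32 core subunits at the pulse (replicates 1 and 2), 26 and 31 after 3 h of chase, 29 and 31 at 6 h, and 14 and 31 at 12 h. One gene, Prosalpha1, had no count in any neuroblast library and is described with its neighbour further on. The library of 12 h of chase replicate 1 stood apart, with 9 core subunits at 0 counts and 1861 genes of any kind with at least 10 counts.

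In neurons the same subunits came and went between libraries. At least 10 counts were found for 2 and 6 core subunits at the pulse, 12 and 28 after 3 h, 4 and 32 at 6 h, and 4 and 32 at 12 h (replicates 1 and 2). The higher number belonged to replicate 2 at each time point, the replicate with the lower share of mitochondrial counts, whose part in these numbers was not tested. The median number detected was 30.5 of 32 per neuroblast library and 9.0 of 32 per neuron library. After 6 and 12 h the neuron replicates lay further apart, at 4 and 32, than these medians, so the medians do not measure a difference between cell types. In bulk RNA of this kind, the number of tagged cells, the RNA per cell and the making of the library cannot be told apart. The part of each was not tested.

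**Figure D1:**
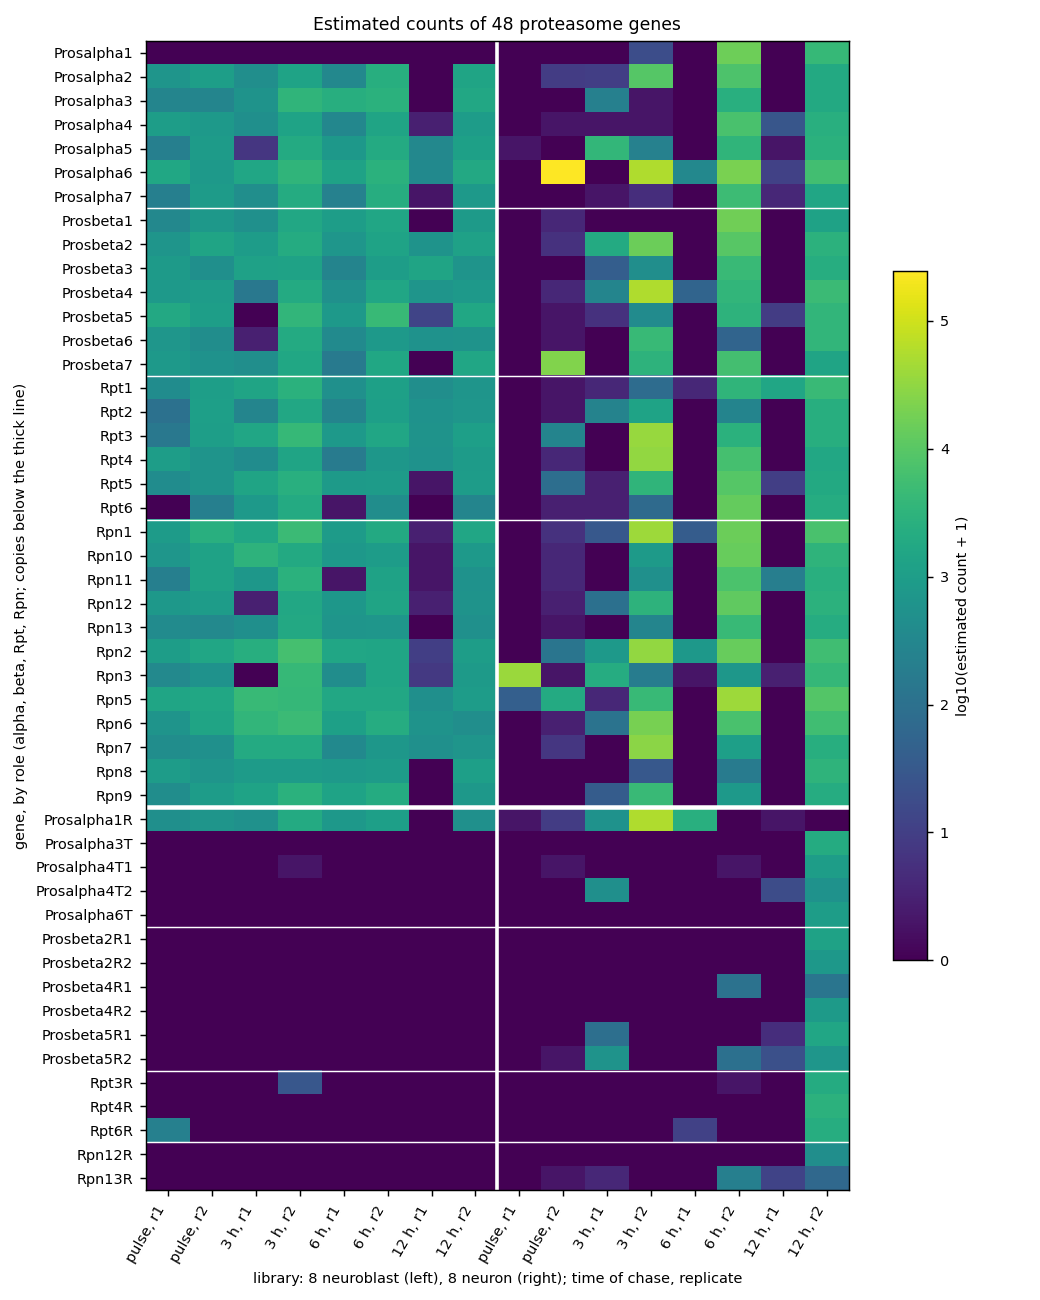
Estimated counts of the 48 proteasome genes (vertical axis, by role, copies under the thick white line) in the 16 libraries (horizontal axis, time of chase and replicate), coloured by log10 of the count plus 1. The core subunits fill the neuroblast columns except 12 h of chase replicate 1, while in neurons they fill mainly replicate 2 after 3, 6 and 12 h, and the copies fill 1 neuron column.

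The core subunits together held 0.108% of the counts in neuroblasts at the pulse in replicate 1 and 0.229% in replicate 2. Their share was 0.128 and 0.252% at 3 h of chase, 0.152 and 0.233% at 6 h, and 0.0700 and 0.148% at 12 h. The lower share was in replicate 1 at each time point. The Wilson 95% interval was 0.0684 to 0.0716% for the lowest of these and 0.251 to 0.254% for the highest, so counting error was small beside the difference between replicates. Such intervals cover counting error only, since reads without molecular identifiers are not independent molecules. In neurons the share was 0.0848 and 0.129% at the pulse, 0.00990 and 0.2003% at 3 h, 0.00165 and 0.147% at 6 h and 0.00188 and 0.102% at 12 h. With mitochondrial counts left out of the totals, it was 0.755 and 0.133% at the pulse, so replicate 1 was then the higher. It was 0.0723 and 0.211% at 3 h, 0.0209 and 0.160% at 6 h and 0.0223 and 0.116% at 12 h.

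In both neuron pulse libraries the share came mainly from a single gene. Rpn3, a subunit of the lid part of the cap, held 99.9% of the core counts in replicate 1 (37551 counts). Prosalpha6, a subunit of the alpha ring, held 90.5% in replicate 2 (247215 counts). The largest single share in a neuroblast library was 18.4%, for Prosbeta3 after 12 h of chase in replicate 1, and in the other 7 it was 6.08 to 13.1%.

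**Figure D2:**
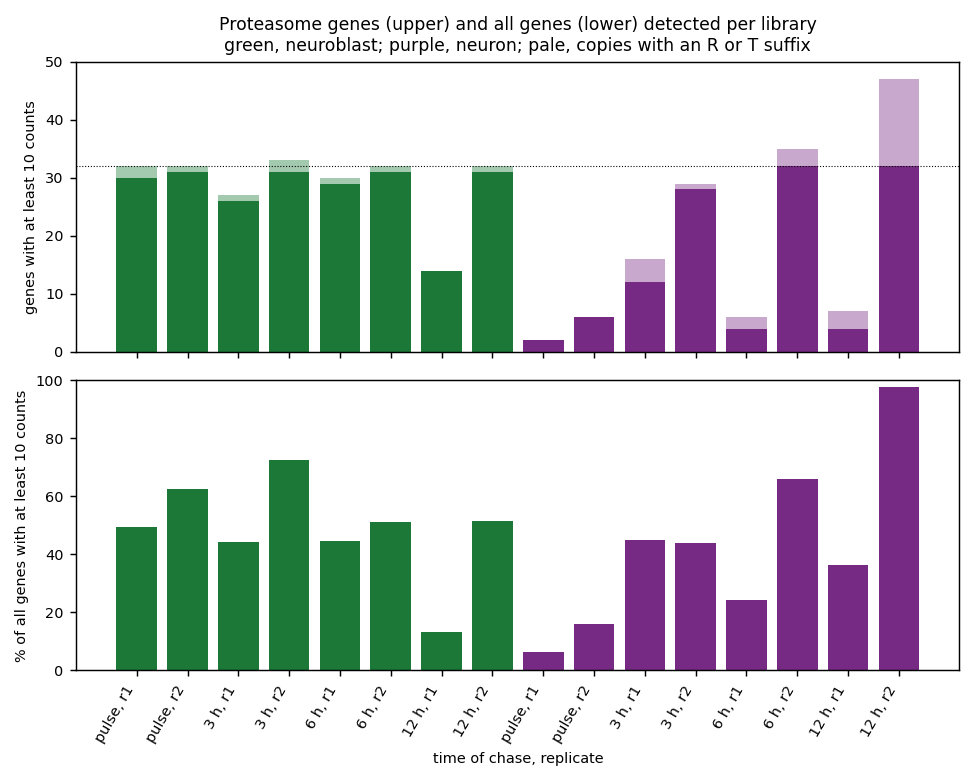
Number of proteasome genes with at least 10 counts in each library (upper panel, core subunits in full colour with the copies stacked on them in a paler shade, dotted line at 32) and share of all genes with at least 10 counts (lower panel, percent). In neuroblasts 14 to 31 core subunits were detected, in neurons 2 to 32, and 12 h of chase replicate 2 of neurons was the single library with 15 copies and 97.8% of all genes.

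Replicates of a time point agreed better in neuroblasts. Of the core subunits with at least 100 counts in either replicate, 1 of 31 fell below 10 counts in the other replicate at the pulse, 5 of 31 after 3 h, 2 of 31 after 6 h and 17 of 31 after 12 h. In neurons the numbers were 5 of 6, 14 of 25, 27 of 31 and 28 of 32. The same happened to 26.4 to 70.9% of all such genes in neuroblasts and to 53.8 to 79.7% in neurons. Where both replicates had at least 10 counts, the median difference between them in CPM (counts per 1000000 of the library total) was 1.495- to 2.18-fold in neuroblasts, over 14 to 30 subunits, and 9.91- to 32.2-fold in neurons, over 1 to 11 subunits. These totals include the mitochondrial counts, whose share differed between the neuron replicates.

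Within neuroblasts, subunits were compared per length, as counts per kilobase of annotated transcript scaled to a sum of 1000000 over all transcripts outside the mitochondrial genome. The highest median over the 8 libraries was that of Prosalpha6, at 178.9 (lowest 64.2, highest 261.7). Prosbeta5, which carries the chymotrypsin-like site, followed at 170.2 (0 to 405.0), and Prosbeta4, a beta subunit without a cutting site, at 157.3 (18.5 to 238.9). The lowest core subunits other than Prosalpha1 were Rpt6, an ATPase, at 24.6 (0 to 102.0), the ubiquitin receptor Rpn13 at 45.1 (0 to 95.3) and Rpn3 at 46.0 (0 to 172.5). The ranges over libraries overlapped from the top of this order to the bottom, so neighbours in the order do not differ beyond their spread.

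The middle core subunit per length lay above 79.5 to 92.0% of all genes in every neuroblast library. After 12 h in replicate 1 this was 86.1%, but the middle subunit was at only 0.43 per length. Only 13.1% of all genes had at least 10 counts there, so the percentile says little about level. The coefficient of variation of the 32 core subunits per length was 0.41 to 0.91 in 7 neuroblast libraries and 1.59 after 12 h in replicate 1. In neurons it was 0.48 after 12 h and 0.93 after 6 h in replicate 2 and 1.89 to 5.65 in the other 6 libraries. The subunits were thus most even in level, among neurons, in the library in which nearly all genes were detected. The median per length of the barrel (alpha and beta) divided by that of the cap (Rpt and Rpn) was 0.70 to 2.73 over the 8 neuroblast libraries. The lowest value was after 3 h in replicate 1. The highest was after 12 h in replicate 1, where both medians were very low, at 1.16 and 0.43.

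Of the alpha ring, Prosalpha6 and Prosalpha3 had the highest mean CPM over the 16 libraries. Prosalpha6 in neuroblasts was at 85.8 and 66.7 CPM at the pulse, 58.9 and 109 at 3 h, 88.9 and 134 at 6 h and 32.9 and 89.9 at 12 h. In neurons Prosalpha6 was at 0 and 1171 CPM at the pulse, 0 and 323 at 3 h, 4.53 and 118 at 6 h and 0.103 and 55.0 at 12 h. The neuron values of replicate 2 lay above both neuroblast values at the pulse and after 3 h, and those of replicate 1 lay below them at all 4 time points, and the cell types overlapped at every time point.

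Prosalpha3 in neuroblasts was at 14.99 and 22.2 CPM at the pulse, 23.0 and 109 at 3 h, 165 and 132 at 6 h and 0 and 85.1 at 12 h. In neurons it was at 0 and 0 CPM at the pulse, 2.24 and 0.00562 at 3 h, 0 and 14.7 at 6 h and 0 and 18.1 at 12 h. The neuroblast libraries were higher without overlap at every time point but 12 h.

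Of the beta ring, Prosbeta4 and Prosbeta5 led. Prosbeta4 in neuroblasts was at 44.2 and 77.1 CPM at the pulse, 5.43 and 63.5 at 3 h, 34.3 and 74.8 at 6 h and 59.7 and 40.4 at 12 h. In neurons it was at 0 and 0.0142 CPM at the pulse, 2.83 and 321 at 3 h, 0.767 and 20.1 at 6 h and 0 and 46.2 at 12 h. Neurons were lower without overlap at the pulse and after 6 h, and the highest of all 16 values was in neurons after 3 h.

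Prosbeta5 in neuroblasts was at 97.4 and 83.7 CPM at the pulse, 0 and 114 at 3 h, 55.5 and 209 at 6 h and 1.09 and 82.6 at 12 h. In neurons it was at 0 and 0.00474 CPM at the pulse, 0.0505 and 2.25 at 3 h, 0 and 18.1 at 6 h and 0.0827 and 34.1 at 12 h. The cell types did not overlap at the pulse and after 6 h, and after 3 and 12 h the low neuroblast libraries reached into the neuron range.

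Of the ATPase ring, Rpt3 in neuroblasts was at 7.68 and 84.5 CPM at the pulse, 61.7 and 130 at 3 h, 55.0 and 74.4 at 6 h and 52.1 and 56.4 at 12 h. In neurons it had no count in replicate 1 at any time point, and in replicate 2 it was at 1.29 CPM at the pulse, 205 after 3 h, 15.98 after 6 h and 23.4 after 12 h. The only time point with overlap was 3 h.

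Rpt4, another ATPase, was at 54.4 and 48.8 CPM in neuroblasts at the pulse, 16.4 and 43.8 at 3 h, 12.2 and 34.8 at 6 h and 51.8 and 44.4 at 12 h. In neurons it had no count in replicate 1, and in replicate 2 it was at 0.0142 CPM at the pulse, 181 after 3 h, 36.3 after 6 h and 17.0 after 12 h. The cell types did not overlap at the pulse and after 12 h.

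Of the Rpn subunits, Rpn3 in neuroblasts was at 18.8 and 44.7 CPM at the pulse, 0 and 126 at 3 h, 30.1 and 71.8 at 6 h and 0.633 and 43.3 at 12 h. In neurons it was at 847 and 0.00474 CPM at the pulse, 22.5 and 1.01 at 3 h, 0.0140 and 4.06 at 6 h and 0.0207 and 37.8 at 12 h. The highest of its 16 values was that of the neuron pulse library of replicate 1, and 6 h was the only time point without overlap. Its mean over all libraries, 78.0 CPM, was the highest of the Rpn genes, while its mean in neuroblasts alone, 42.0 CPM, lay below that of 7 of them.

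Rpn5, also a lid subunit, was the steadier of the pair, with 79.2 and 132 CPM in neuroblasts at the pulse, 168 and 121 at 3 h, 119 and 83.03 at 6 h and 44.2 and 47.1 at 12 h. In neurons it was at 0.925 and 9.17 CPM at the pulse, 0.0303 and 24.1 at 3 h, 0 and 226 at 6 h and 0 and 85.4 at 12 h. The cell types did not overlap at the pulse and after 3 h.

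**Figure D3:**
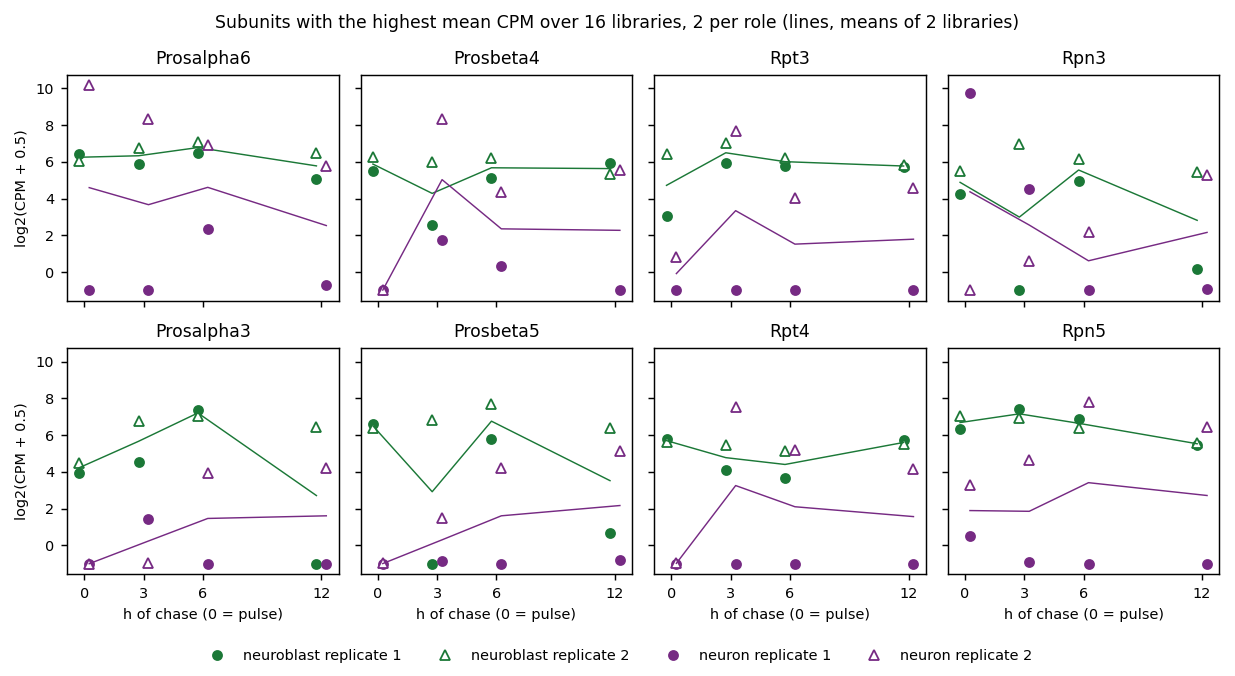
Level of the 2 subunits of each role with the highest mean CPM over the 16 libraries (log2 of CPM plus 0.5) against hours of chase, with replicate 1 as filled circles, replicate 2 as open triangles and lines through the means of 2 libraries. Neuroblast replicates (green) mostly lie together near 5 to 7 on this scale, while neuron replicates (purple) lie far apart, with replicate 1 at the bottom of the scale in most panels.

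Counts of core subunits without overlap between the cell types were read against all 12694 genes tested in the 16 libraries, which include all 32 core subunits. At the pulse both neuroblast libraries exceeded both neuron libraries in CPM for 27 of the 32 core subunits, beside 47.7% of all genes. The numbers were 17 of 32 after 3 h (28.5% of all genes), 14 of 32 after 6 h (18.2%) and 7 of 32 after 12 h (3.23%). The 5 core subunits that overlapped at the pulse were Prosalpha1, Prosalpha6, Prosbeta7, Rpn3 and Rpt6. Both neuron libraries exceeded both neuroblast libraries for 0 of the 32 at every time point, beside 0.725% of all genes at the pulse, 4.4% after 3 h, 7.7% after 6 h and 24.0% after 12 h. With mitochondrial counts left out of the totals the numbers were 27, 16, 14 and 7 in the first direction and 0, 1, 0 and 1 in the second. These counts are a description, and single time points were not tested.

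The level of each gene was then compared over the 4 time points by edgeR's quasi-likelihood test, as neuroblasts minus neurons. None of the 40 members tested passed an adjusted p of 0.05, beside 185 of 12694 genes (1.46%), of which 44 were higher in neuroblasts. At an unadjusted p under 0.05 there were 14 members and 2143 genes. DESeq2 called 11 of the 40 members, beside 2808 of 12694 genes. Of the 11 members, 10 were higher in neuroblasts and the other was Prosalpha1, at 0 counts there. The fitted difference was positive for 28 of the 32 core subunits, made up of 5 of 7 alpha ring, 6 of 7 beta ring, 6 of 6 Rpt and 11 of 12 Rpn genes. The median over the 40 members was 2.495 on the log2 scale and that over all genes 0.27. Scaling moved both, to 1.45 and -0.46 with DESeq2 size factors and to 3.82 and 1.47 with total counts. The median also depended on single libraries. Without the neuroblast library of 12 h of chase replicate 2, which brought 48 members past the filter, it was -0.34 beside -1.68 over all genes, with 23 members positive and 25 negative. Without the neuron library of 12 h of chase replicate 2, it was 5.11 beside 1.65, with 33 positive and 7 negative. From replicate 2 alone it was 0.97 (29 of 48 positive) and from replicate 1 alone 7.69 (31 of 36 positive), with 0 members called in each of these fits. With the replicate number as a term in the fit of all 16 libraries, 14 members passed (smallest adjusted p = 0.00643, edgeR), beside 1381 of all genes, and the median was 4.97 beside 0.77.

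The smallest p among the members was that of Rpn8, the partner of the deubiquitinase Rpn11 in the lid, whose fitted log2 difference was 7.12 ± 2.58 (SE, adjusted p = 0.121, edgeR). It had 662 to 1081 counts in 7 neuroblast libraries and 0 after 12 h in replicate 1. In neurons it had 0 counts in 5 libraries, 30 after 3 h, 177 after 6 h and 3277 after 12 h in replicate 2. The library of 12 h of chase replicate 2 thus held nearly all of its neuron counts. Prosbeta3, a beta subunit without a cutting site, differed by 5.72 ± 2.10 (adjusted p = 0.126, edgeR), and Prosbeta1, which carries the caspase-like site, by 5.82 ± 2.15 (adjusted p = 0.130, edgeR).

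In neuroblasts the slope on hours of chase was positive for 24 of the 32 members tested. None passed the threshold (edgeR, smallest adjusted p = 0.576), beside 60 of 9962 genes (0.602%), all with a positive slope. Counts were scaled within each library in this and the other fits. A slope therefore shows change relative to the other RNA of the library, not a rise or fall in amount. At an unadjusted p under 0.05 there were 1 member and 803 genes. The members tested were 31 core subunits and Prosalpha1R. With TMM scaling (trimmed mean of M values) the slope was positive for all 6 alpha ring and all 7 beta ring subunits tested, 5 of 6 Rpt ATPases and 6 of 12 Rpn subunits, whereas with total counts it was negative for 27 of the 32 members. The median was 0.05 log2 per h over the members and -0.10 over all genes, of which 30.7% were positive.

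This direction depended on the scaling. With total counts in place of TMM, 5 members were positive, with a median of -0.06 beside -0.22 over all genes. With DESeq2 size factors 28 were positive and 4 negative, with a median of 0.09 beside -0.07. The median of the members minus that of all genes was 0.15 with TMM, 0.15 with total counts and 0.16 with DESeq2 size factors. Call counts moved as well, to 10 members with DESeq2 size factors and 13 with the DESeq2 test, all positive, beside 962 and 1151 of all genes. The 10 members called with DESeq2 size factors were Prosalpha5, Prosbeta2, Prosbeta3, Prosbeta4, Prosbeta6, Rpn7, Rpt1, Rpt2, Rpt3 and Rpt4, and the DESeq2 test added Prosalpha6, Rpn5 and Rpn6. Leaving out 12 h of chase replicate 1, in which most genes were not detected, gave 0 members and 0 genes, with 31 members positive and 3 negative. Leaving out 12 h of chase replicate 2 instead gave 14 positive and 20 negative, and replicate 1 alone at all time points gave 14 positive and 19 negative.

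The 3 steepest positive slopes in neuroblasts were those of Prosbeta3 at 0.24 ± 0.10 log2 per h (SE, adjusted p = 0.576, edgeR), Prosalpha3 at 0.20 ± 0.17 and Prosbeta6, a beta subunit without a cutting site, at 0.17 ± 0.13. Prosbeta3 had 883 and 492 counts at the pulse, 1228 and 1270 at 3 h, 268 and 983 at 6 h and 1422 and 631 at 12 h. Its pulse and 12 h libraries overlapped in counts, and in CPM the values of 47.1 and 39.2 at the pulse lay between the 129 and 31.5 after 12 h. The 3 most negative slopes were those of Rpn2, a scaffold subunit, at -0.07 ± 0.14, of the deubiquitinase Rpn11 at -0.06 ± 0.17 and of the ubiquitin receptor Rpn10 at -0.05 ± 0.15. Without 12 h of chase replicate 1, all 3 were positive, at 0.03 for Rpn2, 0.02 for Rpn11 and 0.03 for Rpn10.

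Several markers of muscle and fat body, tissues that can stay attached to the brain, passed with a positive slope in the same fit. Of 4 muscle markers, 3 rose in neuroblasts (Act57B, Mhc and up, 0.20 to 0.22 log2 per h, adjusted p = 0.00329 to 0.0328, edgeR), and all 4 had at least 10 counts in all 8 libraries. Their summed level was 10770 to 74520 CPM in neuroblasts and 12.7 to 16170 CPM in neurons. Of 3 fat body markers tested, Lsp1gamma rose by 0.24 ± 0.05 log2 per h (adjusted p = 0.0132, edgeR), and the summed level of the 4 listed was 2605 to 28030 CPM in neuroblasts and 1.69 to 1983 CPM in neurons. The replicates did not share a direction in CPM. From the pulse to 12 h in neuroblasts, the muscle sum went from 20090 to 12730 in replicate 1 and from 26070 to 74520 in replicate 2. The fat body sum went from 5253 to 26270 in replicate 1 and from 4660 to 2605 in replicate 2. Lsp2 had 13723 to 149191 counts in neuroblast replicate 1 and 0 to 938 in replicate 2. Fbp1 had no count in any neuroblast library. Fbp2 was higher in neuroblasts by 10.5 ± 2.35 on the log2 scale (SE, adjusted p = 0.00336, edgeR). Without the neuroblast library of 12 h of chase replicate 1, 0 genes of any kind passed for the slope in neuroblasts, and with total counts 1 did, so the calls of these slopes are lost without that library and at most 1 of them remains with total counts. The part of these tissues in the levels of the subunits was not tested.

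In neurons the slope was positive for 22 of the 39 members tested and negative for 17, and 0 passed the threshold (edgeR), beside 0 of 11724 genes (0.0%). At an unadjusted p under 0.05 there were 3 members and 1212 genes, and DESeq2 called 3 members and 1360 genes. The median was 0.09 log2 per h over the members and 0.21 over all genes. This direction also turned with the scaling, since 16 members were positive with DESeq2 size factors (median -0.16 beside 0.02 over all genes) and 29 with total counts (0.32 beside 0.39). The standard error was 0.35 to 1.26 for the core subunits, against 0.10 to 0.26 in neuroblasts.

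The 3 most negative slopes in neurons were those of Prosalpha1R at -0.92 ± 0.95 log2 per h (SE), Prosalpha6 at -0.77 ± 0.38 (adjusted p = 0.457, edgeR) and Rpn3 at -0.75 ± 0.37 (adjusted p = 0.453, edgeR). Prosalpha6 and Rpn3 are the genes that filled the pulse libraries. Each was high at the pulse in 1 replicate only, Prosalpha6 in replicate 2 and Rpn3 in replicate 1. DESeq2 called both, and also Prosbeta7, a beta subunit without a cutting site, which had 23393 counts at the pulse in replicate 2 and 0 in replicate 1. Without replicate 2 the slope of Prosalpha6 was 1.26, and without replicate 1 that of Rpn3 was 0.59, neither past the threshold.

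The 3 steepest positive slopes in neurons were those of Prosalpha1 at 1.41 ± 1.26, Prosalpha7, an alpha ring subunit, at 1.25 ± 1.18 and the copy Rpt6R at 1.02 ± 0.46 (adjusted p = 0.397, edgeR). Rpt6R had 2238 counts after 12 h in replicate 2, 10 after 6 h in replicate 1 and 0 in the other 6 neuron libraries. Without replicate 1 at all time points, 12 members passed the threshold, of which 11 were copies that rose and the other was Prosalpha6, which fell, beside 3127 of all genes, of which 2956 rose. Without 12 h of chase replicate 1 alone, 9 members and 2678 genes passed, and all 9 members were copies. In both of these fits the time point of 12 h was represented by the single library in which 97.8% of genes had at least 10 counts.

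**Figure D4:**
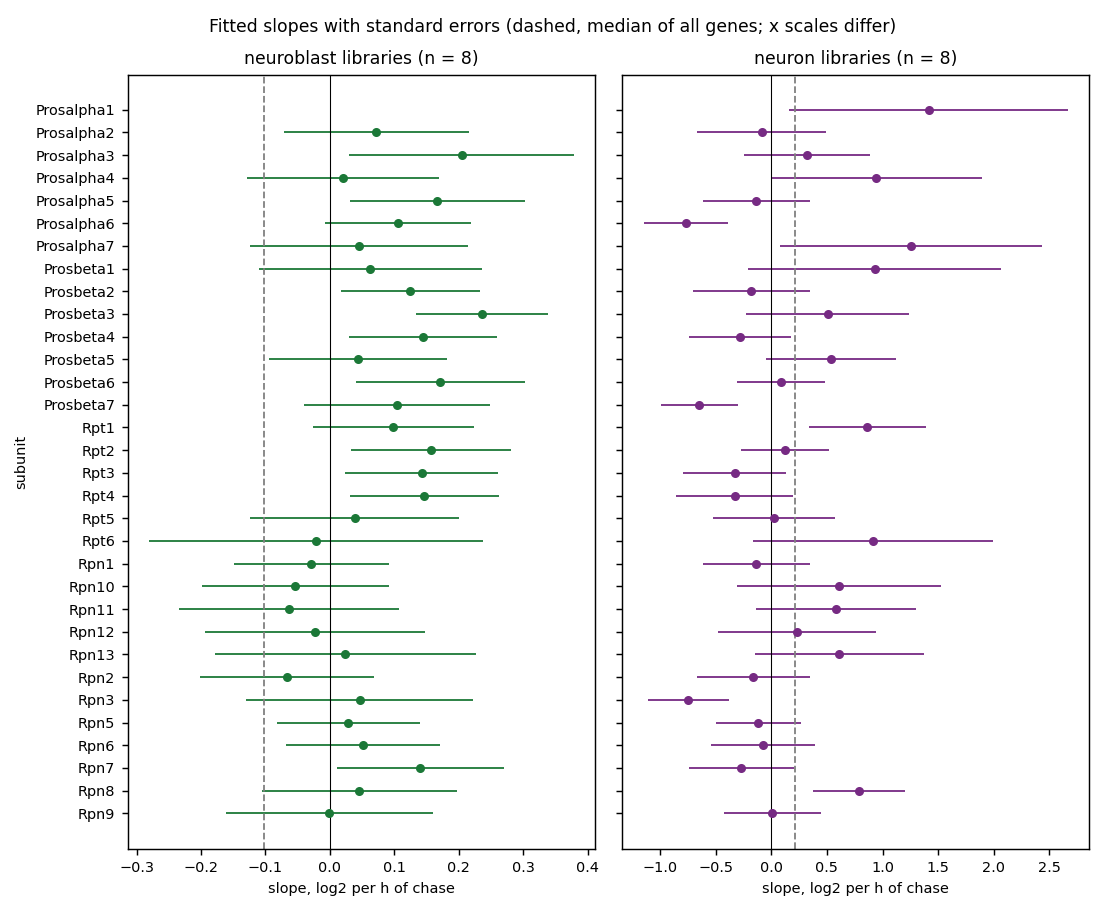
Fitted slope of each core subunit on hours of chase (log2 per h, points) with its standard error (bars) in the 8 neuroblast libraries (left) and the 8 neuron libraries (right), where the horizontal scales differ. No slope passed the threshold, and the dashed line marks the median of all genes, -0.10 in neuroblasts and 0.21 in neurons.

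The difference between the slopes of the cell types, neuroblasts minus neurons, was positive for 19 of 40 members and negative for 21, and 0 passed the threshold (edgeR), beside 72 of 12694 genes (0.567%). Of all genes 24.9% were positive, and the median was -0.04 log2 per h over the members and -0.47 over all genes. With DESeq2 size factors 25 members were positive, and with total counts 8. At an unadjusted p under 0.05 there were 5 members and 1819 genes, and DESeq2 called 9 members and 1900 genes. For 2 of these 9, Prosalpha1 and Prosalpha4T2, all neuroblast libraries were at 0 counts. The smallest p of edgeR was that of Rpt6R, with a difference of -2.43 ± 0.71 log2 per h (SE, adjusted p = 0.0596). It passed with the transcript of highest count (-2.40, adjusted p = 0.0450) and without the neuron library of 12 h of chase replicate 1 (-2.76, adjusted p = 0.0488). Its neuroblast counts were 217 at the pulse in replicate 1 and 0 in the other 7 libraries, and without that pulse library the difference was -0.96. Rpt3R, with 28 counts in 1 neuroblast library and 2077 in neurons after 12 h in replicate 2, differed by -1.71 ± 0.77 (adjusted p = 0.255, edgeR). Prosalpha6 had a difference of 0.81 ± 0.33 (adjusted p = 0.197, edgeR), and it passed with DESeq2 size factors (1.55, adjusted p = 0.0442) and with its transcript of highest count (2.56, adjusted p = 0.00860). Over its alternatives the difference of Prosalpha6 ran down to -1.01, without replicate 2.

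Half-lives were described by 1-phase decay from the pulse mean, limited to 480 min. These half-lives come from counts scaled by TMM, so they too are relative to the other RNA of the library. In neuroblasts 5 of the 32 core subunits had one, Rpn1, Rpn10, Rpn11, Rpn12 and Prosalpha4, all at the limit. In neurons 4 had one. It was 23.6 min for Rpn3, 27.8 min for Prosbeta7 and 31.5 min for Prosalpha6, and Rpn5 was at the limit. The 3 short values belong to the 3 subunits with a high pulse count in 1 library, and each was found in that replicate and not in the other. With a straight line through log2 CPM (plus 0.5), 13 core subunits in neuroblasts had a half-life under the limit, at 257 to 477 min. In neurons 4 did, at 171 to 383 min. No test was run on these lines, which weigh all libraries alike. Some of the 13 had a positive slope in the edgeR fit, as Prosbeta7 at 0.10 and Prosalpha2 at 0.07 log2 per h. Others had a negative one, as Rpn10 at -0.05. Each neuroblast line includes 12 h of chase replicate 1, in which 14 core subunits had at least 10 counts.

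Most copies had no counts in neuroblasts. Apart from Prosalpha1R, a count of at least 10 was found in neuroblasts for Rpt6R (217, pulse replicate 1) and Rpt3R (28, after 3 h in replicate 2). The other 13 copies had at most 1 count in any neuroblast library. By counting error alone, 0 counts in these libraries would allow a level of up to 0.0946 to 0.271 CPM (3 counts). The spread between libraries was wider. In neuroblasts, 26.4 to 70.9% of genes with at least 100 counts in either replicate fell below 10 in the other. A count of 0 therefore does not bound the level at these values.

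In neurons the copies were found in a few libraries each. Prosalpha4T2, Prosbeta5R1 and Prosbeta5R2 had 488, 94 and 580 counts after 3 h in replicate 1. Prosbeta4R1, Prosbeta5R2 and Rpn13R had 108, 99 and 211 after 6 h in replicate 2. After 12 h in replicate 1, Rpn13R, Prosalpha4T2 and Prosbeta5R2 had 11, 17 and 20. After 12 h in replicate 2, 15 of the 16 copies had at least 10 counts, from 64 for Rpn13R to 2962 for Rpt4R. The 7 copies Prosalpha3T (2063 counts), Prosalpha6T (1000), Prosbeta2R1 (1253), Prosbeta2R2 (764), Prosbeta4R2 (876), Rpt4R (2962) and Rpn12R (471) had 0 counts in the other 15 libraries. Prosalpha4T1 (986) had at most 1 count elsewhere. The copies made up 14.5% of all proteasome counts in that library. Their share was also high in 3 other neuron libraries, at 14.95% after 3 h in replicate 1, 13.8% after 3 h in replicate 2 and 68.6% after 6 h in replicate 1, the last 2 mainly from Prosalpha1R. Both neuron libraries exceeded both neuroblast libraries for 4 of the 16 copies after 12 h (24.0% of all genes) and for 0 at the other time points.

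Prosalpha1 and Prosalpha1R lie next to each other on chromosome arm 2R (chr2R:7827303-7828678 and chr2R:7830413-7831771, minus strand, BDGP6), 1735 bases apart. Reads of these genes may not be told apart by the counting where their transcript sequences are alike, which was not checked. In neuroblasts Prosalpha1 had 0 counts in all 8 libraries, while Prosalpha1R had 486 and 649 at the pulse, 528 and 1996 at 3 h, 763 and 1114 at 6 h and 0 and 514 at 12 h. In neurons the counts moved from one gene to the other. Prosalpha1R had 57296 after 3 h in replicate 2, where Prosalpha1 had 18. After 6 and 12 h in replicate 2, Prosalpha1 had 15877 and 4069 and Prosalpha1R 0 and 0. Prosalpha1R alone had 558 after 3 h and 2581 after 6 h in replicate 1. How the counts are shared between them is therefore uncertain, and the sum of the pair was 20.5 to 62.9 CPM in the 7 neuroblast libraries that detected it. Counted as 1 gene, the pair changed no call in any of the 4 tests.

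Transcripts of a subunit also changed between libraries. In neuroblasts the longest annotated transcript held over 50% of the counts for 0 to 2 of the 7 to 14 core subunits with several transcripts and at least 10 counts. In neurons after 12 h in replicate 2 it did so for 11 of 15. Rpn3 shows this change. Its transcript of 1692 bases held all 353 to 4005 counts in the 6 neuroblast libraries with at least 10 counts, and its transcript of 1831 bases held all 37551 counts in neurons at the pulse in replicate 1 and all 3875 after 12 h in replicate 2. The shorter one held 98.5 to 100% in the other 3 neuron libraries with at least 10 counts. Rpn2 had its counts divided evenly between 2 transcripts of 3325 bases in every library that detected it, except in neurons after 12 h in replicate 2, where a transcript of 3412 bases held all 5361.

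For Prosalpha6 the change fell between the neuron time points. In replicate 2 its transcript of 1027 bases held 247172 of the 247215 counts at the pulse, and its transcript of 1070 bases held all 57539 after 3 h, 20554 after 6 h and 5635 after 12 h. In neuroblasts the longer transcript held 99.1 to 100% in 7 libraries and 0% after 12 h in replicate 1. Rpn8 had equal counts on 2 transcripts of 1456 bases, except that in neurons after 12 h in replicate 2 a transcript of 1473 bases held 64.9% of its 3277 counts. For these genes the sum over transcripts was used throughout, since the division between transcripts could not be checked against reads.

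**Figure D5:**
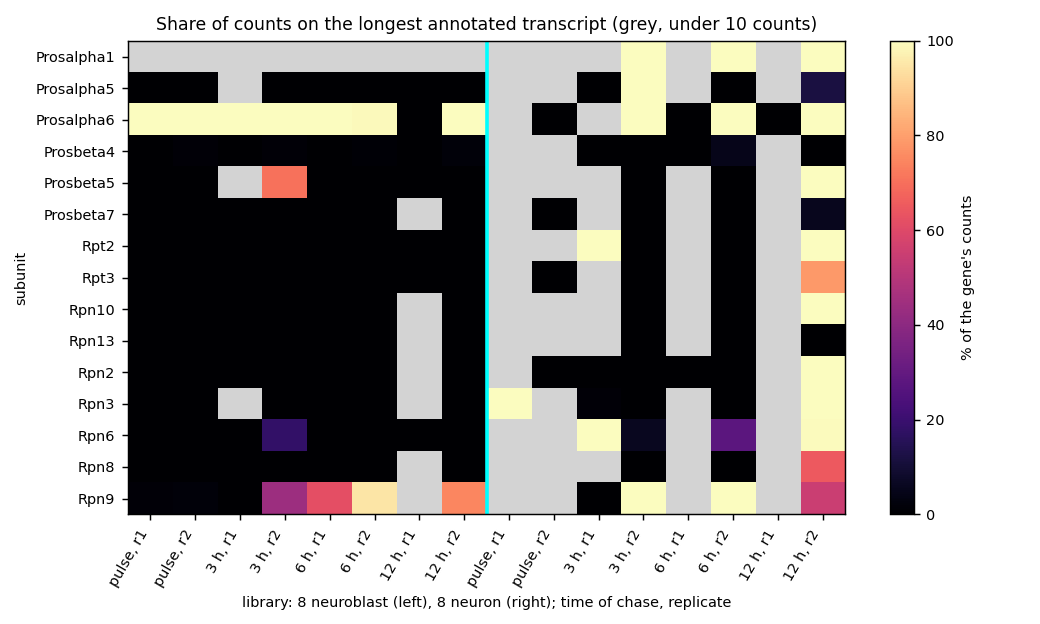
Share of the counts of each core subunit (vertical axis, the 15 genes with several transcripts) on its longest annotated transcript (colour, percent) in the 16 libraries (horizontal axis), with grey for fewer than 10 counts. On the neuroblast side the longest transcript held over 50% of the counts only for Prosalpha6, Rpn9 and Prosbeta5, and in the last neuron column it did so for 11 of 15 genes.

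Of 19 further genes that act with the proteasome, 18 were in the tables, among them the assembly factor Pomp, the cap REG, the deubiquitinases Usp14 and Uch-L5, the ubiquitin-activating enzyme Uba1 and the transcription factor cnc, a homologue of the mammalian factors that induce proteasome genes. None passed the threshold in any of the 4 edgeR tests, and at an unadjusted p under 0.05 there were 0 for either slope, 3 for the difference of slopes and 2 for the level. DESeq2 called 6 for the neuroblast slope, 7 for the neuron slope, 6 for the difference of slopes and 0 for the level. Over all genes, in the same order, it called 1151 of 9962, 1360 of 11724, 1900 of 12694 and 2808 of 12694. The slope in neuroblasts was positive for 8 of the 17 tested and negative for 9, and in neurons it was positive for 7 of 18. The difference of level was positive, toward neuroblasts, for 12 of 18. The pair with the highest mean CPM were TER94, the ATPase that extracts ubiquitinated proteins, and Ubi-p63E, which encodes polyubiquitin. TER94 had 1199 to 14333 counts in neuroblasts, while in neurons it had 21 to 92 in replicate 1 and 19004 to 314978 in replicate 2. Ubi-p63E had 1055 to 41154 in neuroblasts and 0 to 62745 in neurons. In counts, not scaled for the library total or the mitochondrial share, both were higher in replicate 2 of neurons than in replicate 1 at each time point.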

How the data were processed

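EC-tagged RNA of 8 neuroblast and 8 neuron libraries was analysed, with cell type, time point and replicate number taken from the sample labels. Reads had been trimmed (Trimmomatic) and assigned to transcripts (kallisto) by the authors, whose deposited tables hold estimated counts per transcript without normalization. Tool versions are not given in the sources used here. The 31049 transcripts of the neuroblast table and the 30944 of the neuron table were matched to Ensembl release 115 (BDGP6), and 99.3% found a gene. Counts without a gene took 0.0116 to 0.331% of a library. Estimated counts were summed per gene and rounded. The members and gene lists were chosen with earlier results of these data known.

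Slopes on hours of chase, their difference and the difference of level were tested with edgeR (version 4.0.16, R 4.3.3) by quasi-likelihood after filterByExpr and TMM, with Benjamini-Hochberg adjustment over all genes and a threshold of 0.05. Standard errors were derived from the F statistic. CPM used the total over all transcripts. For half-lives, a decay curve through the pulse mean was fitted to counts scaled by TMM, minimising squared error. The scripts were tested on simulated libraries of equal expected depth and a smaller spread than here. The median biological coefficient of variation of these data was 1.78 to 2.98 over the 4 fits. The simulation therefore does not show the power of the tests in these libraries. Named by rule were the 2 genes with the highest mean CPM per role, any member past the threshold, the 3 steepest slopes each way in each cell type, all copies, and pathway genes past the threshold or with the 2 highest mean CPM. The 3 smallest p-values of the other 2 tests were named after the values were seen. Alternatives covered scaling, filter, test (DESeq2 version 1.42.0), replicate block, left-out libraries, the unit of the gene, the time contrast, the half-life curve and the detection minimum. Counting Prosalpha1 and Prosalpha1R as 1 gene was added after seeing the data.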

Additional observations from a re-analysis of the deposited data

How the results depend on the processing

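Slopes, their difference and the level were recomputed under the other settings, and no cause of a change was tested. Members past the threshold in neuroblasts (0) became 10 with DESeq2 size factors and 13 with the DESeq2 test. In neurons (0) they became 3 with the DESeq2 test. For the difference of slopes (0) they became 1 with DESeq2 size factors, 9 with the DESeq2 test and 2 with the transcript of highest count. For the level (0) they became 11 with the DESeq2 test and 14 with a replicate block. With libraries left out, members called ranged from 0 to 12 in neurons, from 0 to 1 for the difference of slopes, and stayed at 0 in neuroblasts and for the level. A minimum of 1 count in place of 10 moved the median number of core subunits detected per neuron library from 9.0 to 22.5.

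Without replicates or libraries, the slope in neuroblasts ran from -0.32 to 0.0304 for Rpn2, from -0.57 to 0.0168 for Rpn11 and from -0.61 to 0.0303 for Rpn10. In neurons it ran from -1.92 to 0.58 for Prosalpha1R, from -1.19 to 1.26 for Prosalpha6 and from -1.39 to 0.59 for Rpn3. The difference of slopes of Prosalpha6 ran from -1.01 to 1.22.

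Calls over all genes also moved. In neuroblasts (60) they were 962 with DESeq2 size factors, 1 with total counts, 93 without a filter, 31 with the stricter filter, 1151 with the DESeq2 test, 8 with the transcript of highest count and 15 for 12 h against the pulse. In neurons (0) they were 1360 with the DESeq2 test and 7 with the transcript of highest count. For the difference of slopes (72) they were 201, 10, 1, 1900 and 208 with DESeq2 size factors, no filter, the stricter filter, the DESeq2 test and the transcript of highest count. For the level (185) they were 403, 36, 45, 2808 and 0 with DESeq2 size factors, total counts, the stricter filter, the DESeq2 test and the transcript of highest count. With a replicate block the calls were 145 in neuroblasts, 0 in neurons, 0 for the difference of slopes and 1381 for the level. With libraries left out they ranged from 0 to 182, 0 to 3127, 0 to 113 and 3 to 206.

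The labels do not say what a replicate number marks. The main fits did not treat the samples as pairs, since not every correlation between deviations of same-numbered libraries was over 0.1. Over all genes every one of these correlations was positive, so the rule of 0.1 does not show that same-numbered libraries are independent. In neurons the number also went with the mitochondrial share, 86.3 to 92.1% in replicate 1 and 2.75 to 11.9% in replicate 2. The main fits hold no term for this shared difference. Among the pulse, 3 h and 6 h the correlations over all genes lay between 0.16 and 0.21 in neuroblasts (neurons, 0.27 to 0.31). With 12 h they lay between 0.06 and 0.13 (neurons, 0.06 to 0.17). Over the members tested, the correlations ran from -0.10 to 0.54 in neuroblasts and from 0.0646 to 0.61 in neurons. With a replicate block, members called were 0, 0, 0 and 14 and genes called 145, 0, 0 and 1381 for the neuroblast slope, the neuron slope, their difference and the level.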
